A study of Homo sapiens with 18 samples.

Results

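Ovarian cancer cells exposed to IgA carried more mRNA for the interleukin-1 agonists IL1A and IL1B than untreated cells, and this was measured separately for a non-specific IgA preparation, an IgA against BDNF and an IgA against TSPAN7. The genes described here are 8 members of the interleukin-1 family and its receptors, out of 55765 genes counted in the series. They comprise the ligands IL1A, IL1B, IL18 and IL33, the receptor antagonist IL1RN, the receptor IL1R1, its accessory chain IL1RAP and the decoy receptor IL1R2. They were chosen by gene name, after the high values of IL1A and IL1B with non-specific IgA were already known, so values in those comparisons are given as a description, with no p-value, and nothing is read from which of the genes passed the threshold there. All 8 genes passed the filter on low counts in both sets of libraries.

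The libraries came from OVCAR3, an established high-grade serous ovarian cancer line grown in RPMI with 2% FBS, and formed 2 separately tabulated series of 9 libraries, with 3 libraries in each of 3 groups. The first series held untreated cells, cells coated with non-specific human IgA and cells given non-specific human IgG. The second held its own untreated cells, cells given IgA directed against BDNF (a secreted neurotrophin) and cells given IgA directed against TSPAN7 (a tetraspanin of the cell membrane), purified from clones of immortalised tumour-derived B cells that had been sorted with antigen tetramers. Antibodies were used at 0.5 μg/mL for 24 h according to the labels, although a caption in the study's supplement gives a shorter exposure. According to the labels all groups were the same line, with no engineered gene. The second series as analysed here has no group given an irrelevant IgA, and nothing in the labels says that replicates were separate cultures, so every p-value measures only the spread between these libraries. The 2 series are never compared by test.

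Interleukin-1α and interleukin-1β both signal through IL1R1, which recruits IL1RAP and, through MYD88 and the IRAK kinases, activates NF-κB and MAP kinases. The antagonist encoded by IL1RN occupies IL1R1 without recruiting IL1RAP, and IL1R2 binds the agonists without a signalling domain. Interleukin-1β and interleukin-18 are made as precursors that caspase-1 cleaves, whereas interleukin-1α and interleukin-33 can act as alarmins when cells are damaged. In epithelial tissues this pathway is best known for inducing neutrophil-attracting chemokines. IL1A and IL1B are themselves known NF-κB targets.

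On GRCh37, IL1A lies at chr2:113531502-113542070 and IL1B at chr2:113587328-113594393, both on the minus strand, and IL1RN lies nearby at chr2:113856892-113891593 on the plus strand. IL1R2 (chr2:102608422-102645006) and IL1R1 (chr2:102681004-102796334) are neighbours on the plus strand of the same chromosome. IL18 is at chr11:112013976-112034819 on the minus strand, IL33 at chr9:6215786-6257983 and IL1RAP at chr3:190231840-190377539 on the plus strand. No other counted gene with a known position overlapped 7 of these genes. Positions were found for 33177 of the 55765 symbols by name and for 1894 by an older name. The other symbols could not be checked for overlap. Within IL1RAP, the pseudogene GCNT1P3 and the RNA gene RN7SKP296 lie on the same strand, and neither had more than 12 counts in a library.

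The promoters of the agonists and the antagonist are shown because the results turn on these 3 genes. Sequences are the RefSeq windows of 250 bases before to 50 bases after the first listed start on GRCh38.p14, 5′ to 3′ on the strand of the gene. IL1A is the window chr2:112784444-112784743 (minus), IL1B chr2:112836730-112837029 (minus) and IL1RN chr2:113117721-113118020 (plus). Capitals mark matches on either strand to AP-1 (TGANTCA) or to a TATA box (TATAAA), and the NF-κB consensus was searched as well.
IL1A: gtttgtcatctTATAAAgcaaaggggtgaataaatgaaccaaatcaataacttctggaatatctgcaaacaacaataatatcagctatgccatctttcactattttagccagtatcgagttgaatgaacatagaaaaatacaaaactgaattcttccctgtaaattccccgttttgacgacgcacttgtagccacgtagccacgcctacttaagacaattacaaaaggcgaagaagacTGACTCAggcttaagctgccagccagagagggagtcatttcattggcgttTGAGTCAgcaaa
IL1B: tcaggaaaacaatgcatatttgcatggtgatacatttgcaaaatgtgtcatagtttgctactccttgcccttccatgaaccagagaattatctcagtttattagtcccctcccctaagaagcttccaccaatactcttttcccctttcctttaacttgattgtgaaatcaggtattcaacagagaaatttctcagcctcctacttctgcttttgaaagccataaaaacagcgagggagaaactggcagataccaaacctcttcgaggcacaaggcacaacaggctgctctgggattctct
IL1RN: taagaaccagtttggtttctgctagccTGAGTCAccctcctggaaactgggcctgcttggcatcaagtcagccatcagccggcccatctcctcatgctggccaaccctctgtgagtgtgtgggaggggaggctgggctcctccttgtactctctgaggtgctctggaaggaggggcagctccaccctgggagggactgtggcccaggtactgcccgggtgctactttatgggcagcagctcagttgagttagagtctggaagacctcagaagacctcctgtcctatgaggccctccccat
The IL1A window held 2 AP-1 matches, at positions -12 to -6 and 39 to 45 from the start, and a TATA match at -239 to -234. IL1B held no match to any of the 3 motifs, and the first IL1RN window held an AP-1 match at -223 to -217. Over all 35116 windows of this length in the table, 7.71% held AP-1, 11.5% TATAAA and 5.91% the NF-κB consensus. RefSeq windows were found for 7 of the 8 genes, the exception being IL18, and none of the windows of these genes held the NF-κB consensus. A match or its absence describes these letters in this window only.

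Depth was 27920733 to 42371474 counts per library (first series) and 39254350 to 47381836 (second series). Mitochondrial genes took 5.75% to 19.1% of counts among the first 9 libraries, and the highest value belonged to IgA replicate 3, which is why log2 fold changes with this antibody are also given without it. All 8 epithelial and Müllerian markers checked (PAX8, WT1, MUC16, EPCAM, KRT7, KRT8, KRT18 and CDH1) were detected in every library. PAX8, WT1, KRT7 and KRT8 were called between non-specific IgA and each control (2 higher, 2 lower). Of all genes 12.6% were higher and 11.6% lower against IgG, and 12.9% and 12.1% against untreated. With BDNF IgA PAX8, KRT7 and CDH1 were higher, beside 4.49% of all genes. With TSPAN7 IgA KRT7 was higher and WT1 and MUC16 lower, beside 4.46% and 4.08%. KRT7 was also higher, and WT1, CDH1 and MUC16 lower, with TSPAN7 than with BDNF IgA, beside 3.42% and 4.5%. Of 10 myeloid markers, AIF1 was at 0 in every library, ITGAM and FCGR1A did not exceed 2 counts, and CD163 did not exceed 5. Of 8 lymphoid markers, CD3D, IGHA1 and IGKC were at 0 in every library. The summed myeloid list ran from 375.5 to 744.5 normalised counts per library in the first series, mainly S100A8 and S100A9, and the lymphoid list from 4.046 to 23.54 over both series.

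On a scale of counts per kilobase of exon and depth (RPKM), untreated cells of the first series ranked IL1R1 highest at 33.3 ± 2.73 (SD, n = 3), then IL18 at 21.2 ± 0.633, IL1R2 at 5.24 ± 0.360 and IL1RAP at 2.33 ± 0.269. The agonist IL1A followed at 0.442 ± 0.217 RPKM, IL1RN at 0.327 ± 0.0824, IL33 at 0.0650 ± 0.0137 and IL1B at 0.0155 ± 0.0135. Of neighbours in this order, only IL1A and IL1RN had overlapping libraries. The untreated cells were thus rich in receptor and in IL18 mRNA and poor in the classical agonists.

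Untreated cells of the second series had the same 5 leading genes, with IL1R1 at 27.4 ± 1.25 RPKM, IL18 at 20.0 ± 1.10, IL1R2 at 7.56 ± 0.228, IL1RAP at 2.01 ± 0.156 and IL1A at 0.691 ± 0.167. IL33 stood next at 0.646 ± 0.185 RPKM, overlapping IL1A, before IL1RN at 0.259 ± 0.0196 and IL1B at 0.0335 ± 0.0106. With non-specific IgA the order was IL18 (46.9 ± 8.41 RPKM), IL1R1 (21.7 ± 5.30), IL1A (7.68 to 14.2 over the libraries), IL1R2 (5.21 ± 1.38), IL1RAP (4.22 ± 0.625), IL1B (0.632 ± 0.281), IL33 (0.347 ± 0.140) and IL1RN (0.210 ± 0.0324). IL1A thereby stood above IL1R2 in all 3 IgA libraries, whereas IL1R2 and IL1RAP overlapped there, as did IL1B and IL33.

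With IgG the order was that of untreated cells, from IL1R1 (32.7 ± 3.41 RPKM), IL18 (21.4 ± 2.88), IL1R2 (4.68 ± 0.239) and IL1RAP (2.54 ± 0.183) to IL1A (0.287 ± 0.0662), IL1RN (0.277 ± 0.0629), IL33 (0.0599 ± 0.00625) and IL1B (0.00286 ± 0.00496), with IL1A and IL1RN overlapping. BDNF IgA libraries had IL1R1 at 25.2 ± 1.18 RPKM, IL18 at 20.7 ± 1.29, IL1R2 at 6.38 ± 0.246, IL1RAP at 2.07 ± 0.235, IL1A at 1.82 ± 0.337, IL33 at 0.826 ± 0.0720, IL1RN at 0.533 ± 0.101 and IL1B at 0.121 ± 0.0159, with IL1RAP and IL1A overlapping. TSPAN7 IgA libraries had IL1R1 at 27.5 ± 0.414 RPKM and IL18 at 26.7 ± 1.76, which overlapped. There IL1R2 stood at 9.32 ± 0.720 RPKM, IL1RAP at 2.26 ± 0.109, IL1A at 1.94 ± 0.149, IL33 at 0.622 ± 0.162, IL1RN at 0.362 ± 0.0364 and IL1B at 0.142 ± 0.0483, without overlap between neighbours. The mean of IL1A thus stood below those of the 3 receptor genes in every group other than non-specific IgA.

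IL1A, an agonist that needs no cleavage to bind IL1R1, had 20.8, 24.4 and 49.1 normalised counts in the untreated libraries of the first series. It had 15.9, 20.0 and 25.3 normalised counts with IgG and 581, 546 and 1006 with IgA. Every IgA library was more than 10 times above every IgG and untreated library, and IgG and untreated overlapped. In bulk RNA a larger share of cells with IL1A mRNA and more of it per cell cannot be told apart. The fitted log2 fold change was 5.12 ± 0.36 (SE) for IgA against IgG, or 34.8-fold, and 4.47 ± 0.34 against untreated, or 22.2-fold. Without IgA replicate 3 these were 4.79 ± 0.31 and 4.13 ± 0.29. For IgG against untreated the log2 fold change was -0.65 ± 0.39 (edgeR adjusted p = 1.0).

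Among the antigen-specific groups, untreated libraries had 57.7, 45.5 and 74.0 normalised IL1A counts. BDNF IgA libraries had 147, 133 and 188 and TSPAN7 IgA libraries 167, 178 and 153. All 6 antibody libraries lay above all 3 untreated libraries. IL1A rose 2.62-fold with BDNF IgA, by 1.39 ± 0.18 on the log2 scale (edgeR adjusted p = 3.915e-05), and 2.79-fold with TSPAN7 IgA, by 1.48 ± 0.18 (edgeR adjusted p = 1.445e-05). Between the antigen specificities the difference was 0.09 ± 0.16 (edgeR adjusted p = 0.809), with a 95% interval from -0.23 to 0.41 on the log2 scale.

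IL1B, the agonist released after caspase-1 cleavage, was close to absent without IgA. Raw counts were 0, 3 and 3 in untreated cells, 0, 1 and 0 with IgG, and 54, 41 and 63 with IgA. The IgA libraries were again separate from the other 6. Scaled for depth, the ratio of summed counts was 193 for IgA against IgG (158 against 1 counts, 95% exact interval 34.1 to 7659) and 35.4 against untreated (158 against 6 counts, 15.9 to 97.9). These intervals cover counting error only. The fitted log2 fold changes, 7.22 ± 0.96 and 5.16 ± 0.77, depend on the prior count at such low levels. Without IgG replicate 2, the one IgG library with an IL1B count, the value against IgG was 9.04 ± 1.41. Without IgA replicate 3 the values were 6.84 ± 1.02 and 4.78 ± 0.82.

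With antigen-specific IgA the IL1B counts were 13, 17 and 17 for BDNF and 19, 11 and 22 for TSPAN7, against 5, 5 and 3 in the untreated libraries of that series. Every antibody library exceeded every untreated library. IL1B rose by a log2 fold change of 1.84 ± 0.49 with BDNF IgA (edgeR adjusted p = 0.0229) and of 2.07 ± 0.48 with TSPAN7 IgA (edgeR adjusted p = 0.00886). The BDNF call was lost in 4 of the 6 fits that left out a compared library (adjusted p up to 0.107) and the TSPAN7 call in 2 (0.0608 without TSPAN7 IgA replicate 3 and 0.0569 without untreated replicate 3). The BDNF call went without BDNF IgA replicate 3 (adjusted p = 0.0832) and without untreated replicate 1 (0.0605), 2 (0.0635) or 3 (0.107).

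**Figure D1:**
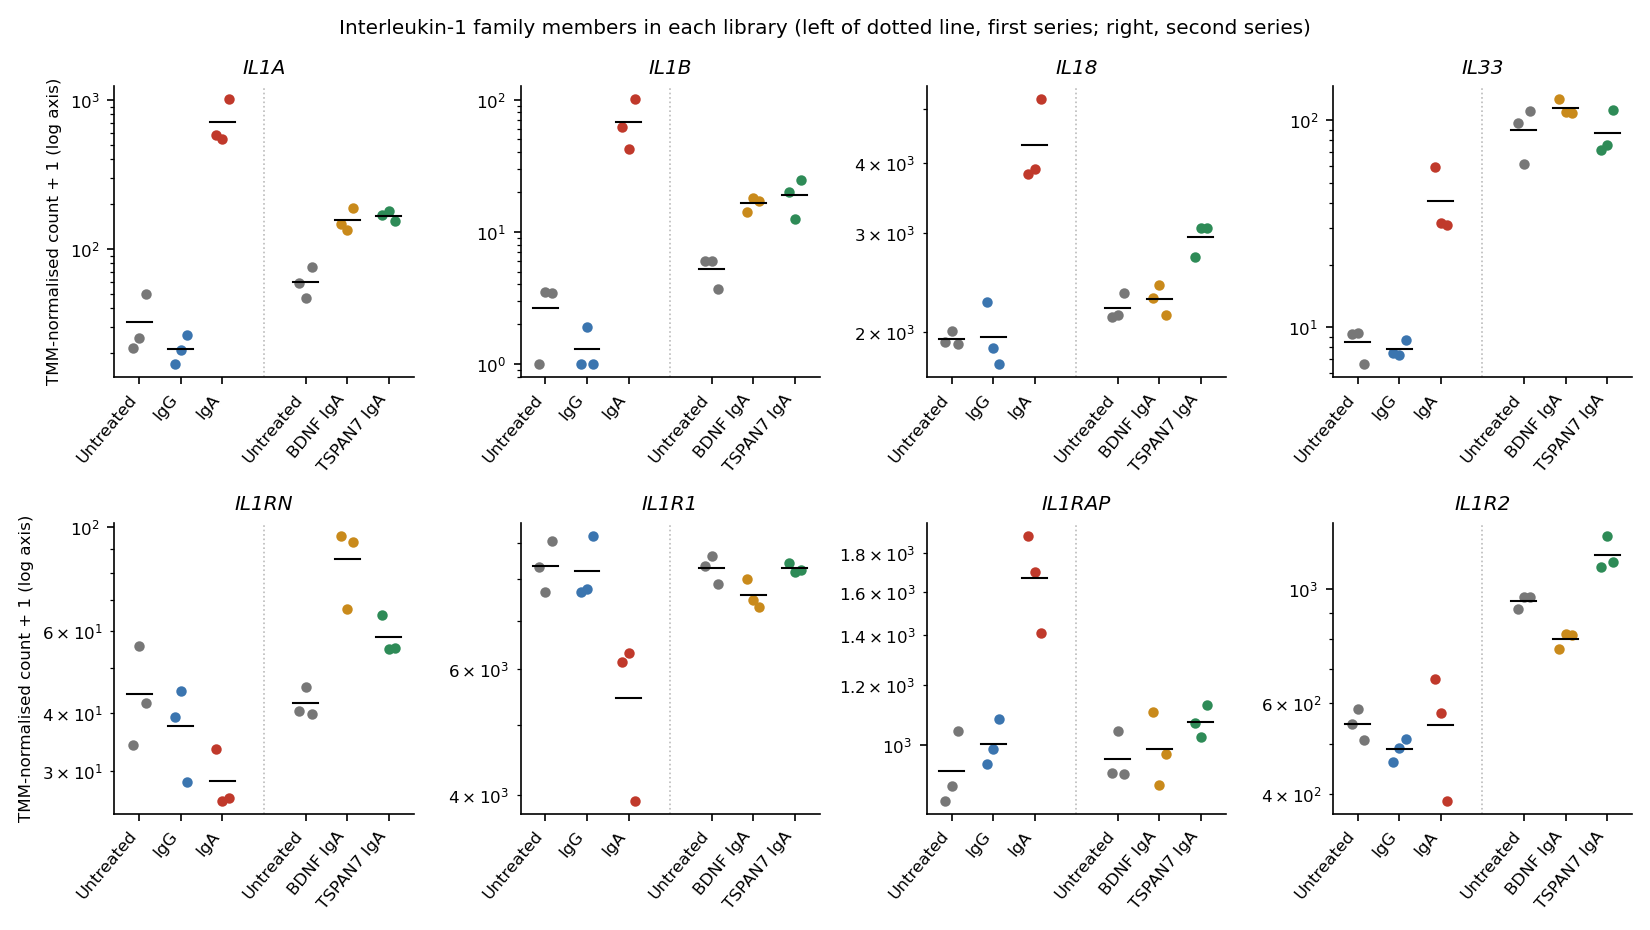
TMM-normalised counts plus 1 (log axis, a different range in each panel) of the 8 genes in each of the 18 libraries. Points are libraries and bars group means, with the first series left of the dotted line and the second right of it. IL1A and IL1B stood clear of the other libraries with non-specific IgA, at 546 to 1006 and 41.0 to 99.5 normalised counts, and stood above their own untreated libraries with both antigen-specific IgAs.

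IL18, whose product induces interferon-γ in T and NK cells, was already abundant in untreated cells. It had 1918, 2009 and 1901 normalised counts in untreated libraries of the first series, 2259, 1871 and 1752 with IgG, and 3823, 3895 and 5195 with IgA. IgA libraries did not overlap the other groups. This was a log2 fold change of 1.13 ± 0.13 against IgG and 1.15 ± 0.13 against untreated, and 0.97 ± 0.11 and 0.99 ± 0.11 without IgA replicate 3.

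IL18 separated the antigen-specific antibodies. Untreated libraries had 2127, 2139 and 2344 normalised counts, BDNF IgA libraries 2295, 2428 and 2143, and TSPAN7 IgA libraries 2724, 3062 and 3060. IL18 rose 1.34-fold with TSPAN7 IgA, by 0.42 ± 0.06 on the log2 scale (edgeR adjusted p = 7.276e-05). Its level there exceeded that with BDNF IgA 1.29-fold, by 0.37 ± 0.06 (edgeR adjusted p = 0.000548). BDNF IgA and untreated libraries overlapped in IL18 (0.05 ± 0.06, 95% interval -0.06 to 0.17, edgeR adjusted p = 0.658).

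IL33, the alarmin ligand of the ST2 receptor, had 8, 10 and 7 raw counts in untreated cells of the first series, 7 in each IgG library, and 52, 31 and 19 with IgA. No IgA library overlapped the others. The fit gave 2.52 ± 0.54 against IgG and 2.41 ± 0.53 against untreated on the log2 scale, and 2.68 ± 0.58 and 2.57 ± 0.57 without IgA replicate 3. Among the antigen-specific groups IL33 had 96.2, 60.7 and 110 normalised counts untreated, 125, 109 and 107 with BDNF IgA and 70.9, 74.8 and 112 with TSPAN7 IgA. The 3 groups overlapped, and IL33 did not pass the test with BDNF IgA (0.35 ± 0.21, edgeR adjusted p = 0.345) or TSPAN7 IgA (-0.06 ± 0.21, edgeR adjusted p = 0.907).

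IL1RN, which encodes the antagonist, did not follow the agonists in the first series. It had 33.2, 54.6 and 41.1 normalised counts in untreated cells, 38.3, 43.7 and 27.4 with IgG, and 32.5, 25.0 and 25.3 with IgA. The IgA libraries lay just below all untreated libraries and overlapped IgG. The log2 fold change was -0.40 ± 0.38 against IgG and -0.64 ± 0.38 against untreated, on raw counts of 16 to 65 per library. Without IgA replicate 3 these were -0.35 ± 0.41 and -0.59 ± 0.41.

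With its own untreated cells, the second series had IL1RN at 39.5, 44.5 and 38.8 normalised counts untreated, 94.98, 65.9 and 92.2 with BDNF IgA, and 63.9, 53.8 and 54.1 with TSPAN7 IgA. All antibody libraries exceeded all untreated libraries. IL1RN rose 2.06-fold with BDNF IgA (log2 fold change 1.04 ± 0.21, edgeR adjusted p = 0.00363). With TSPAN7 IgA the log2 fold change was 0.49 ± 0.22, which did not pass (edgeR adjusted p = 0.202), and the TSPAN7 libraries lay below the BDNF libraries by 0.56 ± 0.21, which did not pass either (edgeR adjusted p = 0.104, or 0.0247 without BDNF IgA replicate 2).

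The ratio of IL1A to IL1RN counts within a library does not depend on the scaling between libraries. It is not corrected for exon length (2017 bases for IL1A, 3734 for IL1RN), so 1 does not mark equal amounts of mRNA. In the first series the ratio was 0.625, 0.446 and 1.20 in untreated cells, 0.415, 0.458 and 0.920 with IgG, and 17.9, 21.8 and 39.8 with IgA. The second series had 1.46, 1.02 and 1.91 untreated, 1.54, 2.02 and 2.04 with BDNF IgA, and 2.61, 3.31 and 2.82 with TSPAN7 IgA. TSPAN7 IgA libraries had a higher ratio than every BDNF IgA and untreated library, whereas BDNF IgA and untreated libraries overlapped. No test was made on these ratios, since an exact permutation test of 3 against 3 libraries cannot give a p-value below 0.1.

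**Figure D2:**
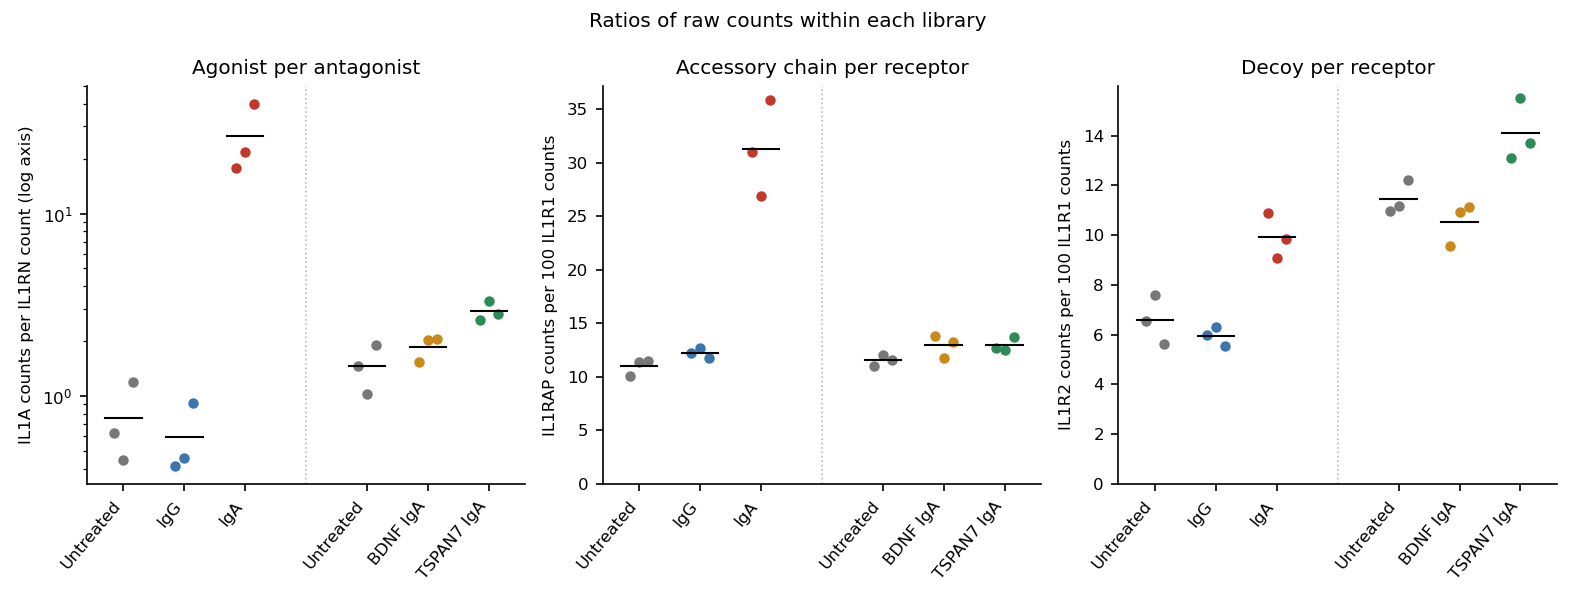
Ratios of raw counts in each library: IL1A per IL1RN count (log axis), and IL1RAP and IL1R2 per 100 IL1R1 counts (linear axes from 0). Counts are not corrected for exon length. Points are libraries and bars group means, and the dotted line separates the 2 series. Non-specific IgA stood above the other groups of its own series in all 3 panels, at 17.9 to 39.8 IL1A counts per IL1RN count, and at 26.9 to 35.9 IL1RAP counts and 9.06 to 10.9 IL1R2 counts per 100 IL1R1 counts.

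IL1R1, the signalling receptor, was the most abundant of the 8 mRNAs in untreated cells and was lower with non-specific IgA. It had 8323, 7693 and 9063 normalised counts untreated, 7691, 7765 and 9209 with IgG, and 6133, 6319 and 3925 with IgA. IgA libraries lay below all others, and replicate 3, the library with 19.1% mitochondrial counts, lay lowest. The log2 fold change was -0.59 ± 0.16 against IgG and -0.61 ± 0.16 against untreated, and -0.40 ± 0.11 and -0.43 ± 0.11 without that library. What the mitochondrial share contributes to these values was not tested.

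With antigen-specific IgA and its controls, IL1R1 had 8343, 8635 and 7884 normalised counts untreated, 8002, 7496 and 7310 with BDNF IgA, and 8432, 8200 and 8236 with TSPAN7 IgA. It did not pass the test in any of the 3 comparisons, although TSPAN7 libraries did not overlap BDNF libraries (0.12 ± 0.05, edgeR adjusted p = 0.103). Against untreated the log2 fold change was -0.12 ± 0.05 with BDNF IgA (edgeR adjusted p = 0.104) and 0.00 ± 0.05 with TSPAN7 IgA (edgeR adjusted p = 0.996, 95% interval -0.09 to 0.09).

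IL1RAP, the accessory chain needed for signalling, moved opposite to IL1R1 with non-specific IgA. It had 841, 879 and 1041 normalised counts untreated, 940, 985 and 1082 with IgG, and 1898, 1698 and 1407 with IgA, with no overlap between IgA and the other groups. The log2 fold change was 0.74 ± 0.13 against IgG and 0.86 ± 0.13 against untreated, and 0.84 ± 0.12 and 0.96 ± 0.12 without IgA replicate 3. Per 100 IL1R1 counts there were 10.1, 11.4 and 11.5 IL1RAP counts in untreated libraries, 12.2, 12.7 and 11.7 with IgG, and 31.0, 26.9 and 35.9 with IgA. In the second series all 9 libraries had 882 to 1127 normalised IL1RAP counts, and the gene did not pass in any comparison (edgeR adjusted p = 0.804 for BDNF IgA, 0.213 for TSPAN7 IgA and 0.38 between them).

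IL1R2, the decoy, overlapped between all groups of the first series. It had 545, 583 and 508 normalised counts untreated, 461, 491 and 511 with IgG, and 669, 573 and 387 with IgA. IgA against IgG gave a log2 fold change of 0.16 ± 0.18 and IgA against untreated -0.00 ± 0.18, and 0.35 ± 0.13 and 0.18 ± 0.13 without IgA replicate 3. Relative to IL1R1, which was lower with IgA, there were 9.06 to 10.9 IL1R2 counts per 100 IL1R1 counts with IgA, above the 5.61 to 7.59 in untreated cells and the 5.54 to 6.32 with IgG.

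IL1R2 differed in direction between the antigen-specific antibodies. Untreated libraries had 915, 964 and 964 normalised counts, BDNF IgA libraries 764, 819 and 815, and TSPAN7 IgA libraries 1103, 1271 and 1129. The 3 groups did not overlap, with untreated cells between the antibodies. IL1R2 fell by 0.25 ± 0.07 on the log2 scale with BDNF IgA (edgeR adjusted p = 0.0271) and rose by 0.30 ± 0.07 with TSPAN7 IgA (edgeR adjusted p = 0.00571). The direct comparison gave 0.55 ± 0.07, or 1.46-fold more IL1R2 mRNA with TSPAN7 IgA (edgeR adjusted p = 5.196e-05).

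The fall with BDNF IgA was not stable: the call was lost in 5 of the 6 fits that left out a compared library, with adjusted p of 0.130 without BDNF IgA replicate 1, 0.0540 without replicate 3, and 0.0506, 0.106 and 0.0930 without untreated replicates 1, 2 and 3. The rise with TSPAN7 IgA lost its call without TSPAN7 IgA replicate 2 (adjusted p = 0.0639). The direct comparison kept its call in all 6. Per 100 IL1R1 counts, IL1R2 had 13.1 to 15.5 counts with TSPAN7 IgA, 9.55 to 11.2 with BDNF IgA and 10.96 to 12.2 in untreated cells.

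**Figure D3:**
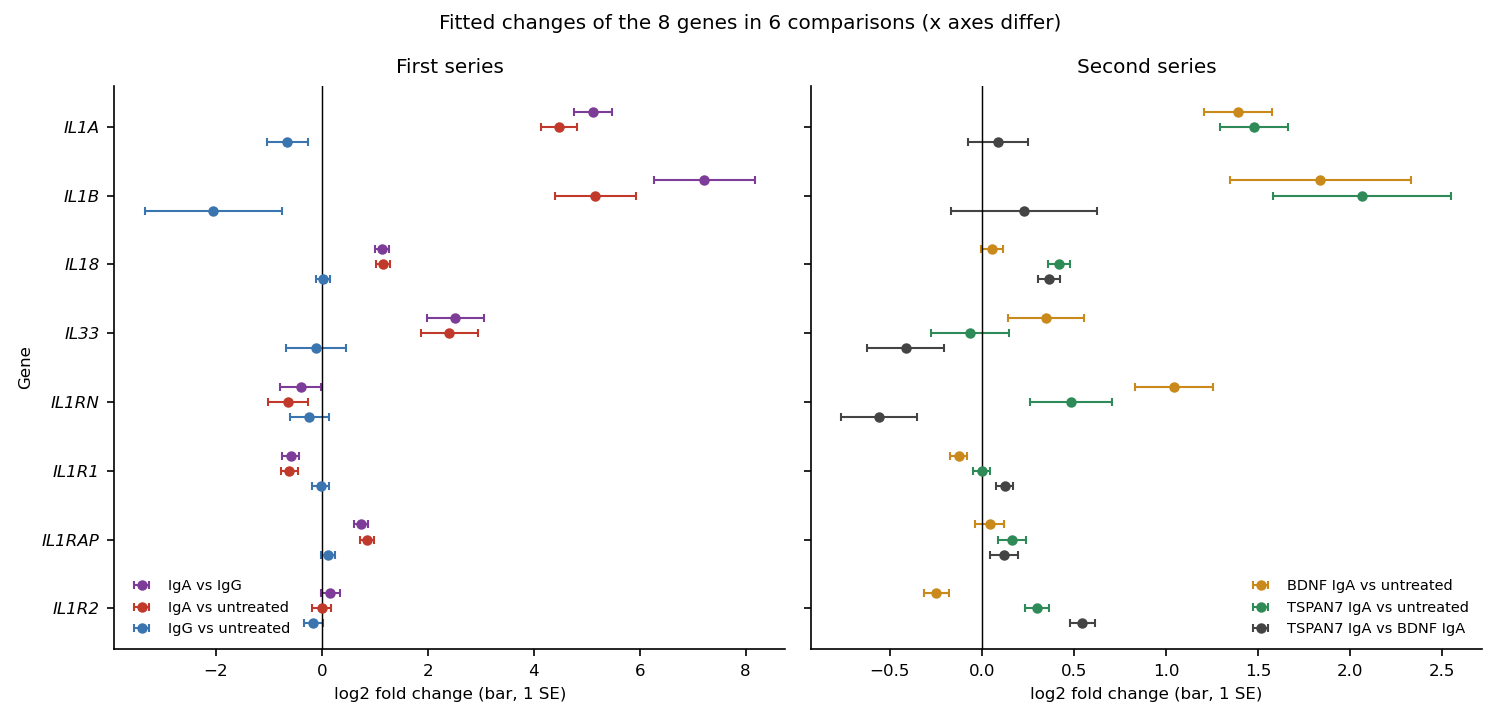
Fitted log2 fold change (x axis, points) with 1 SE (bars) of the 8 genes (y axis) in the 3 comparisons of the first series (left) and of the second (right), with a different x range in each panel. IL1A and IL1B lie right of 0 in every comparison of an IgA with its own control, and IL1R2 lies on opposite sides of 0 for BDNF IgA (-0.25) and TSPAN7 IgA (0.30).

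Counted over the family, 5 of the 8 genes were called higher (IL1A, IL1B, IL18, IL33 and IL1RAP) and IL1R1 lower for non-specific IgA against IgG, where 12.6% of 18012 tested genes were called higher and 11.6% lower. The same 5 and the same 1 were called against untreated cells, where 12.9% of genes were higher and 12.1% lower. Of the calls over all genes, 51.9% were higher against IgG and 51.4% against untreated, or 19.4% and 23.3% with library size scaling. Nothing is read from the family's counts, since the genes were selected with this contrast known. For IgG against untreated cells none of the 8 genes was called by edgeR or DESeq2 and none had an unadjusted p under 0.05. There 0.0% of all genes were called higher and 0.0% lower (edgeR), with 89 of 18012 at an unadjusted p under 0.05.

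With BDNF IgA, 3 of 8 genes rose (IL1A, IL1B and IL1RN), where 4.49% of 18732 tested genes were called higher, and IL1R2 fell, where 3.18% were called lower. With TSPAN7 IgA, 4 of 8 rose (IL1A, IL1B, IL18 and IL1R2), against 4.46% of all genes, and none fell, against 4.08%. Between TSPAN7 and BDNF IgA, 2 of 8 were higher (IL18 and IL1R2), against 3.42% of all genes, and none lower, against 4.5%. The comparisons with untreated cells share the same 3 control libraries. The median log2 fold change of the 8 genes was 0.20 with BDNF IgA and 0.36 with TSPAN7 IgA, beside 0.00 and -0.00 over all tested genes.

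Of 14 further genes of the family and its receptors, 5 passed the filter on low counts in each series. None of these 5 was called in any of the 6 comparisons. Over all genes 12.6% were higher and 11.6% lower for non-specific IgA against IgG, and 12.9% and 12.1% against untreated. For IgG against untreated both shares were 0.0%, and in the second series each share was 3.18% to 4.5%. Nothing is read from the absence of calls among 5 genes. The 5 tested were IL18R1 (a receptor chain for interleukin-18), IL18BP (which neutralises that cytokine), SIGIRR (an inhibitory receptor), IL36RN (the interleukin-36 antagonist) and IL1RAPL1. IL18R1 had 228 ± 26.3 normalised counts in untreated cells and 260 ± 107 with non-specific IgA, and IL18BP had 164 ± 27.8 and 159 ± 61.3. Among those below the filter, IL1RL1, which encodes the interleukin-33 receptor ST2, had at most 10 counts in a library, and IL18RAP, the accessory chain for interleukin-18, also at most 10. Interleukin-18 and interleukin-33 mRNA were thus measured in cells with few or no reads from part of the matching receptors.

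All 18 genes listed for signalling downstream of IL1R1 were tested, and most were not called. IRAK2, a kinase of the receptor complex, was called higher with each IgA: it had 160 ± 31.0 normalised counts untreated, 152 ± 20.9 with IgG and 1600 ± 408 with non-specific IgA (log2 fold change 3.40 ± 0.22 against IgG and 3.31 ± 0.21 against untreated). In the second series IRAK2 rose by 0.58 ± 0.10 with BDNF IgA (edgeR adjusted p = 0.000477) and by 0.42 ± 0.10 with TSPAN7 IgA (edgeR adjusted p = 0.0078). PELI2, a ubiquitin ligase acting on IRAK proteins, fell by 1.03 ± 0.20 with non-specific IgA against IgG and by 0.58 ± 0.08 with TSPAN7 IgA (edgeR adjusted p = 9.029e-05), and was 0.55 ± 0.08 lower with TSPAN7 than with BDNF IgA (edgeR adjusted p = 0.0003).

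For the whole signalling list the counts were 2 higher and 2 lower for non-specific IgA against IgG, with TAB2 (0.35 ± 0.11), an adaptor of the TAK1 kinase, higher and IKBKB (-0.60 ± 0.16), the IκB kinase, lower, beside 12.6% of all genes higher and 11.6% lower. Against untreated cells they were 1 higher and 2 lower, beside 12.9% and 12.1%, with IKBKB at -0.58 ± 0.16 and PELI2 at -0.99 ± 0.20. With BDNF IgA IRAK2 was the only called gene of the 18, beside 4.49% of all genes higher and 3.18% lower. With TSPAN7 IgA 2 were higher, including IRAK1 (0.15 ± 0.05, edgeR adjusted p = 0.0391), and PELI2 lower, beside 4.46% and 4.08% of all genes. The list medians were -0.13, -0.11, 0.02, 0.02, 0.00 and -0.02 for the 6 comparisons, in the order non-specific IgA against IgG, against untreated, IgG against untreated, BDNF, TSPAN7, and TSPAN7 against BDNF.

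Of 15 genes listed for cleaving or releasing the family, 10 were tested in each series. CASP1, whose product cleaves the IL1B and IL18 precursors, had 161 ± 12.9 normalised counts in untreated cells and 118 ± 21.5 with non-specific IgA, which did not pass. It rose by 0.50 ± 0.14 with TSPAN7 IgA (edgeR adjusted p = 0.0295). CAPN2, a subunit of calpain, which processes the IL1A precursor, was higher by 0.65 ± 0.13 with non-specific IgA against IgG and by 0.17 ± 0.04 with TSPAN7 IgA (edgeR adjusted p = 0.0118), and CAST, the calpain inhibitor, was higher by 0.36 ± 0.11 with non-specific IgA against IgG and lower by 0.15 ± 0.04 with BDNF IgA (edgeR adjusted p = 0.0201).

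With non-specific IgA against IgG, 3 of the 10 were called higher (CAPN2, CAST and CASP4, at 0.43 ± 0.10) and CASP8 lower (-0.38 ± 0.10), beside 12.6% and 11.6% of all genes. Against untreated cells 4 were higher, CARD16 (0.95 ± 0.28), a caspase-1 regulator, being the added one, and CASP8 lower (-0.50 ± 0.10), with CAPN2 at 0.66 ± 0.13 and CAST at 0.39 ± 0.11, beside 12.9% and 12.1% of all genes. CAST alone was called with BDNF IgA (lower), beside 4.49% of all genes higher and 3.18% lower. CAPN2 and CASP1 were called with TSPAN7 IgA (higher), beside 4.46% and 4.08%. The inflammasome sensors NLRP3, NLRC4 and AIM2 had at most 4 counts in any library, and CASP5 and CARD18 had 0. The list medians were 0.17 and 0.18 with non-specific IgA, 0.06 with BDNF IgA and 0.00 with TSPAN7 IgA. With library size scaling, which put the median of all genes at -0.25 against IgG and -0.22 against untreated, those with non-specific IgA were -0.06 and -0.02.

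A list of 20 genes known to be induced by interleukin-1 was also followed, several of which were already known to be high with non-specific IgA, so that their direction there is not independent evidence. Of the 17 tested, 15 were called higher against IgG and 14 against untreated cells, with none lower, beside 12.6% and 12.9% of all genes higher, and the list medians were 2.57 and 2.67. IL8 (CXCL8, a neutrophil chemokine) had 142 ± 49.6 normalised counts untreated, 140 ± 37.2 with IgG and 16707 ± 4678 with IgA, and CCL20, which attracts CCR6-bearing lymphocytes, had 31.5 ± 4.95, 31.0 ± 14.2 and 2683 ± 462. IL6 had 23.0 ± 3.79, 36.8 ± 8.55 and 854 ± 189, and TNFAIP3, a feedback inhibitor of NF-κB, 329 ± 30.2, 312 ± 33.4 and 5640 ± 1411.

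With BDNF IgA 15 of the 17 rose and with TSPAN7 IgA 13, with none lower in either. Over all genes 4.49% and 4.46% were higher and 3.18% and 4.08% lower. The list medians were 0.43 in both. The list was chosen with earlier results of these data known, so these counts are not independent evidence either. IL8 rose by 0.71 ± 0.08 with BDNF IgA (edgeR adjusted p = 4.979e-06) and by 1.45 ± 0.08 with TSPAN7 IgA (edgeR adjusted p = 3.911e-11). CCL20 rose by 0.75 ± 0.13 (edgeR adjusted p = 0.000997) and 1.32 ± 0.13 (edgeR adjusted p = 4.896e-07). LCN2 and CXCL3 rose by 0.71 ± 0.12 and 0.64 ± 0.08 with BDNF IgA, and CXCL2 by 0.90 ± 0.08 with TSPAN7 IgA. IL6 rose by 1.35 ± 0.22 with TSPAN7 IgA (edgeR adjusted p = 0.000298). For IgG against untreated cells none of the 17 was called, where 0.0% of all genes were called higher and 0.0% lower.

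**Figure D4:**
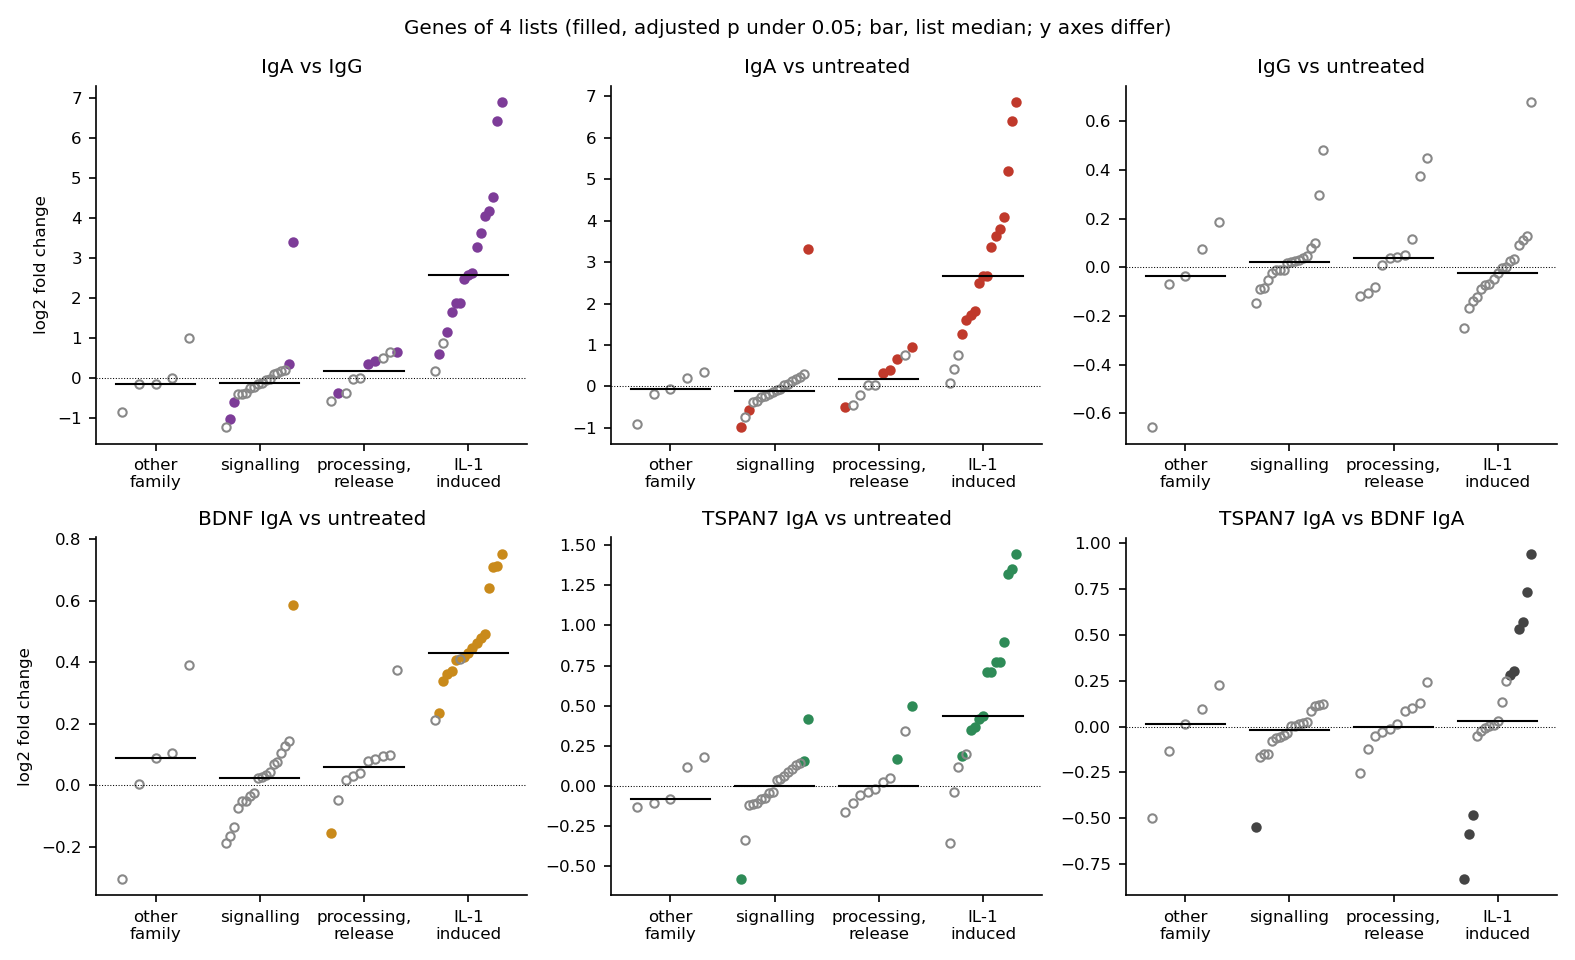
Log2 fold change (y axis, a different range in each panel) of every tested gene of the 4 lists (x axis) in the 6 comparisons. Filled points passed an adjusted p of 0.05, open points did not, and bars are list medians. The interleukin-1 induced list had medians of 2.57 and 2.67 with non-specific IgA and 0.43 with each antigen-specific IgA, while the other lists had medians between -0.14 and 0.18.

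Directly between the antigen-specific antibodies, 6 of the 17 induced genes were higher with TSPAN7 IgA and 3 were lower, beside 3.42% and 4.5% of all genes. IL8 was higher by 0.74 ± 0.08 (edgeR adjusted p = 8.893e-06) and IL6 by 0.94 ± 0.21 (edgeR adjusted p = 0.00746), beside IL1A and IL1B, which did not pass between these antibodies. LCN2, an iron-binding antimicrobial protein, was lower by 0.59 ± 0.12 (edgeR adjusted p = 0.00336) and the collagenase MMP1 by 0.83 ± 0.13 (edgeR adjusted p = 0.000345), and the third was C3, at -0.48 ± 0.07.

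Markers of other cells moved with some of these comparisons. With BDNF IgA 2 of 5 myeloid markers tested were called higher, beside 4.49% of all genes. They were the myeloid-associated genes S100A8 and S100A9, which epithelial cells also express. The summed myeloid list was 8729 to 12070 normalised counts, against 5182 to 7440 untreated and 5867 to 6355 with TSPAN7 IgA. In the BDNF IgA libraries CD163 and AIF1 were at 0. PTPRC had 17.1 to 19.0 normalised counts there against 6.08 to 9.03 untreated, without overlap, and was not called. CD14 had 21.0 to 22.8 and LYZ 12.0 to 17.1, each overlapping the untreated libraries. With TSPAN7 IgA PTPRC alone of the 5 was called higher, on 6 to 24 counts per library, beside 4.46% of all genes. With non-specific IgA against IgG the collagen genes COL1A1 and COL1A2 were called higher of 3 stromal markers tested, beside 12.6% of all genes. The summed stromal list was 2415 to 4854 normalised counts against 2092 to 2331. None of 4 myeloid markers was called against IgG, beside 12.6% of all genes higher and 11.6% lower. Against untreated cells, whose summed stromal list of 2241 to 2497 overlapped that with IgA, none of the 3 stromal markers was called. There 12.9% of all genes were higher and 12.1% lower. Whether such markers have a part in the values of the 8 genes was not tested.

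Among the genes whose log2 CPM followed IL1A most closely over the 9 libraries of the first series were RAB10 (Pearson r = 0.993), C8orf4 (0.991), USP53 (0.989) and IRAK2 (0.989), and for IL1B they were DLGAP4 (0.987), IL1A itself (0.987), IL8 (0.986), GRAMD3 (0.986) and SPIRE1 (0.984). In the second series they were SP110 (0.982), CSF1 (0.980), NT5C2 (0.972), NCK1 (0.970) and IGF2R (0.970) for IL1A, and DUSP8 (0.966), GPT2 (0.962), STX16 (0.961), LAP3 (0.961) and HRASLS2 (0.957) for IL1B. IL1A and IL1B correlated with each other at 0.987 across the first 9 libraries and 0.834 across the other 9. In each series the 9 points share the contrast between antibody and control, so these values describe the grouping of the libraries as much as any pair of genes.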

How the data were processed

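RNA from 18 OVCAR3 libraries was sequenced by the study. Per the labels and the study's methods, the authors demultiplexed with bcl2fastq 2.20.0.422, trimmed with cutadapt 1.8.1, aligned to GRCh37 (hg19) and counted reads per gene. The labels name HTSeq 0.6.1 as the counter and the methods name featureCounts, and strand use is not given in the sources used here. The deposited values are raw counts per gene symbol, in 1 table per series. From the later one, 2055 exact duplicate rows were dropped, leaving 55765 symbols in each. No 2 libraries of a group agreed within counting noise. For pairs of the second series the chi-square per degree of freedom was only 3.91 to 12.2, against 6.60 to 232 for the first. The fitted common dispersion, a measure of spread beyond counting noise, was 0.00303 for the second series, against 0.0307 for the first. The p-values of the second series rest on this smaller spread, and the labels do not say whether its replicates were separate cultures.

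The 8 genes and all lists were chosen with earlier results of these data known. Counts were tested with edgeR 4.0.16 (R 4.3.3): TMM scaling, filterByExpr, quasi-likelihood fit by group over the 9 libraries of a series, two-sided, with Benjamini-Hochberg adjustment over 18012 and 18732 genes and a threshold of 0.05. The SE was taken as the absolute log2 fold change over the root of its F statistic, and 95% intervals are normal approximations from it. Normalised counts refer to the average effective depth within a series. Levels per length are RPKM, although TPM had been planned. RPKM used union exon lengths of GENCODE v44 lifted to GRCh37, which is not the annotation release the authors used. Ratios of summed IL1B counts carry exact conditional binomial intervals. As alternatives, DESeq2 1.42.0 was run, as were fits with 3 further scalings, 2 further filters, omission of mitochondrial and ribosomal RNA genes, only the 6 compared libraries, a replicate block, a threshold of 0.01 and each library left out in turn. Simulated data had 200 genes changed by 1.5 log2 units, all drawn from genes with a mean of at least 50 counts. The fit recovered 93% for IgA against IgG (17540 genes) and 100% for BDNF IgA against untreated (18393 genes). IL1B in both series, and IL33 and IL1RN in the first, averaged fewer counts than that. These rates do not describe such genes, or changes smaller than 1.5 log2 units.

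List genes are named by rule: up to 4 per list and comparison with the largest absolute change among called genes with at least 50 mean normalised counts in a compared group. The like genes are the 5 with the highest Pearson correlation of log2 CPM (prior count 2) among tested genes at that level. For IL1A in the first series, 1 of these is not reported here. C3, SIGIRR, IL36RN, IL1RAPL1, IL18R1, IL18BP and the genes given as low or absent were named beyond the rule after their values were seen.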

Additional observations from a re-analysis of the deposited data

Results flagged for a closer look

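IL1RN lay on different sides of its own untreated cells with different IgA preparations, but of these comparisons only BDNF IgA passed the test (edgeR adjusted p = 0.00363, and 0.202 for TSPAN7 IgA). Its mean log2 ratio to the untreated mean of the same series was -0.64 with non-specific IgA, where all 3 libraries were below it, 1.01 with BDNF IgA and 0.47 with TSPAN7 IgA, where all 3 libraries were above it. With non-specific IgA the fitted value was -0.64 ± 0.38. The difference between preparations was not tested, because the preparations belong to different series with their own untreated cells.

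IL1R2 differed between the antigen-specific antibodies, with a mean log2 ratio to untreated of -0.25 in BDNF IgA libraries and 0.30 in TSPAN7 IgA libraries, and no library of either group on the other side of 0. This difference was tested directly in edgeR (log2 fold change 0.55 ± 0.07, adjusted p = 5.196e-05). Groups of 3 libraries are too small for a test of outlying samples, so none was made.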

How the results depend on the processing

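In the 4 comparisons from which the genes were not selected, 6 of 10 called changes kept their call under every alternative that gave an adjusted p, and of 160 alternative values 14 lost the call and 0 reversed. Calls with non-specific IgA are listed for completeness and support nothing. Members called higher with non-specific IgA numbered 3 rather than 5, against IgG and against untreated, when at least 10 counts in 6 libraries were required, because IL1B and IL33 were then not tested. At an adjusted p of 0.01, the genes called lower numbered 0 for non-specific IgA against IgG, against untreated, and for BDNF IgA. Leaving out 1 library gave 0 to 1 genes lower in these 3 comparisons and in TSPAN7 against BDNF IgA. IL1R1 lost its call against IgG without IgG replicate 3 (log2 fold change -0.50) and against untreated without untreated replicate 3 (-0.55). DESeq2 gave no adjusted p for IL1B in the second series.

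List genes called lower numbered 6 rather than 3 for non-specific IgA against IgG with library size scaling, and 2 rather than 1 without a filter for BDNF and for TSPAN7 IgA. Library size scaling moved the mean of IL18 in untreated cells of the first series to 2011 normalised counts and that of IL1R2 with IgG to 514. It also lowered the median of all genes from -0.01 to -0.25 for non-specific IgA against IgG and to -0.22 against untreated. The medians of the further family, signalling, processing and induced lists were then -0.39, -0.35, -0.06 and 2.33 against IgG and -0.30, -0.32, -0.02 and 2.45 against untreated. Of 96 list medians under alternatives, 21 moved by more than their spread over left-out libraries.

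Changes of sign were seen only among uncalled values. For IL1R2 against IgG the log2 fold change was -0.0555 with library size scaling and ran from -0.0186 to 0.347 over left-out libraries. Against untreated it was 0.00278 without mitochondrial and ribosomal RNA genes and ran from -0.181 to 0.185. For IgG against untreated, IL18 ran from -0.0996 to 0.0888, and IL1R1 from -0.113 to 0.0347 and was 0.000785 with library size scaling. IL1RAP with BDNF IgA ran from -0.0457 to 0.113. With TSPAN7 IgA IL33 ran from -0.294 to 0.125 and IL1R1 from -0.0337 to 0.0326, the latter being -0.000365 with RLE, -0.0106 with upper quartile, -0.00071 without a filter, -0.000336 with DESeq2 and -0.00153 with the 6 compared libraries. Between TSPAN7 and BDNF IgA, IL1A ran from -0.0129 to 0.248 and IL1B from -0.00942 to 0.466. The cause of these moves was not tested.

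Same-numbered libraries did not deviate together: of 9 pairs in each series, 1 and 0 had a correlation over 0.1 (-0.07 to 0.25 and -0.02 to 0.09), so the replicate numbers were not taken as a pairing. With a replicate block, list genes called lower with TSPAN7 IgA numbered 2 rather than 1, and the members called were as many as without it in all 6 comparisons. Depth limits IL1B outside the IgA libraries, IL33 in the first series and IL1RN throughout.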
